A study of Homo sapiens with 4 samples.

Results

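The sequences described here carried a GGACU motif in which the first base, 2 nt upstream of the adenosine, had been exchanged for A or for U. They were chosen by sequence alone, as members of the permutated class with A or U at position 49, G at 50, A at 51, C at 52 and U at 53. The rule found 100 sequences, 50 AGACU and 50 UGACU, from 50 human loci. Each was present as 3 oligonucleotides that differed in their tag, which gave 300 of the 11999 oligonucleotides of the library. The RNA was made by in vitro transcription and incubated with recombinant METTL3–METTL14 complex (methylated, 2 libraries) or without it (unmethylated, 2 libraries). An antibody against N6-methyladenosine (m6A) was then crosslinked to it, and positions were mapped from where reverse transcription stopped at the crosslink (miCLIP2, an individual-nucleotide crosslinking protocol). The labels describe duplicates but not separate methylation reactions, so the p-values below measure the spread between these libraries, which may be technical. No cell was sampled: the RNAs are naked, synthetic and short.

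METTL3 is the catalytic subunit of the m6A writer and METTL14 holds the RNA in place beside it. The complex prefers adenosines in the DRACH motif (where D stands for any base but C, R for a purine and H for any base but G), in which GGACU is regarded as a strong form. AGACU and UGACU remain DRACH motifs. The exchange therefore asks how much of the signal at a strong site depends on the base at -2, with the rest of the context kept. The antibody recognises m6A but also crosslinks to unmodified RNA, so that the unmethylated libraries measure a background that depends on sequence.

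The original of each locus is its GGACU sequence from the class whose central adenosine carried m6A in HEK293T, a line derived from human embryonic kidney. For 21 loci the original was identical to the exchanged versions outside the motif. For the other 29 loci the original with the same coordinate also differed at the 5′ end, at position 1 alone in 15 loci and at up to 5 bases in the others. All 100 exchanged sequences started with G, against 21 of the 50 originals. Comparisons with the original were therefore made on the 21 identical loci first, and values over all 50 are given beside them. The A and U versions of one locus differed at position 49 only in all 50 loci.

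The loci lay on 20 chromosomes. Of the 50 adenosines, 44 lay in exactly 1 RefSeq gene, which gives the locus its name below, and 6 lay in 2 genes and are named by coordinate. Whether a locus is exonic, intronic or in an untranslated part was not annotated here. The coordinates are those of the table, whose build is not given in the sources used here; of 69 loci of the library found in RefSeq promoter sequence of GRCh38.p14, 68 had the same coordinate there.

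An example shows the design. The SPG7 locus (chr16:89557659, plus strand; SPG7 encodes paraplegin, a mitochondrial protease) has an original that is identical outside the motif. Its 3 sequences follow 5′ to 3′ over all 141 positions, with the bases at positions 49 to 53 in capitals.
SPG7 A version: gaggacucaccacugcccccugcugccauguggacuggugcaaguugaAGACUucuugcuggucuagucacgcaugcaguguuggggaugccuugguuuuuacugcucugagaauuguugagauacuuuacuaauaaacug
SPG7 U version: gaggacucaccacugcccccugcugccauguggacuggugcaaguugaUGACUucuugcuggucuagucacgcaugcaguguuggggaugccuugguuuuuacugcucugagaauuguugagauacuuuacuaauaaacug
SPG7 original: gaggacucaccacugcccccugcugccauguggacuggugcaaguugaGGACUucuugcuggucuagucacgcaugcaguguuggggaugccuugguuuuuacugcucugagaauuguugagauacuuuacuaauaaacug

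The loci on which the results turn are shown as positions 31 to 71 of the A version, with the same bases in capitals. The U version and the original hold U and G as the first capital. They are shown because a member or pair of each is described by its values below.
SLC35H1 (chr20:46350256, minus strand): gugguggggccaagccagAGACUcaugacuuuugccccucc
PACS2 (chr14:105395012, plus strand): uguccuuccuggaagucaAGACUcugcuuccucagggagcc
CDX2 (chr13:27962732, minus strand): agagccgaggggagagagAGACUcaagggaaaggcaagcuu
HIF1AN (chr10:100548247, plus strand): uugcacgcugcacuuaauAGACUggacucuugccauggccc
CHKA (chr11:68053954, minus strand): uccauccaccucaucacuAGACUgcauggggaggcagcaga
FBXW4 (chr10:101611241, minus strand): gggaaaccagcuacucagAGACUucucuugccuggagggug
ESS2 (chr22:19134127, minus strand): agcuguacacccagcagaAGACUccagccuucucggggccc
PCYT2 (chr17:81904766, minus strand): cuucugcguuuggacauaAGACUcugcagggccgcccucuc

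The methylated libraries held 13110615 and 13265092 counts and the unmethylated ones 10483825 and 12028474, of which the members took between 2.95% and 3.85%. Depth at the reported adenosine was low. Of the 50 A versions, 15 had no count at position 51 in any library and 28 had fewer than 10 in all 4 together. Of the 50 U versions, 15 had none and 32 fewer than 10, and of the 50 originals 10 had none and 27 fewer than 10. A median A version held 3285 counts over all positions and libraries, a median U version 2150 and a median original 2215.5. The A version of PACS2 held 1005879, and 1 of its 3 oligonucleotides alone had 272266 and 232579 counts in the methylated libraries, out of 373647 and 341778 for all 50 A versions together, and 151316 and 283976 in the unmethylated ones, out of 232869 and 376575. Totals over the 50 loci are therefore also given without PACS2.

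With the complex, the crosslink signal at the central adenosine was higher in versions and originals alike, by a smaller factor in the versions. The signal is given as counts at position 51 per 1000 counts of the same sequences, summed over the 21 loci with an identical original. The A versions had 4.26 and 4.58 per 1000 in the methylated libraries, against 2.31 and 1.88 in the unmethylated ones. The U versions had 9.01 and 8.83 per 1000 in the methylated libraries, against 5.05 and 5.59 in the unmethylated ones. The GGACU originals had 6.58 and 4.83 per 1000 in the methylated libraries, against 1.55 and 1.37 in the unmethylated ones. In each of the 3 sets both methylated libraries lay above both unmethylated ones.

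As means, the A versions had 4.42 ± 0.226 per 1000 with the complex and 2.10 ± 0.307 without it, a ratio of 2.11 (SD, n = 2 each). The ratio was 1.68 for the U versions, from 8.92 ± 0.129 and 5.32 ± 0.383 per 1000. For the originals it was 3.90, from 5.70 ± 1.24 and 1.46 ± 0.128 per 1000. On the log2 scale the response of the A versions was lower than that of the originals by 0.87, that is 0.548 of the original's fold (log2 difference -0.87). For the U versions the log2 difference was -1.20, or 0.435 of the original's fold. In these sums each locus weighs by its depth, which differs between its versions. With sequences weighted equally the log2 difference was -0.61 for the A versions and -1.38 for the U versions. The A version's log2 share relative to the original was -0.63 and -0.08 in the methylated libraries and 0.58 and 0.46 in the unmethylated ones, so the groups did not overlap. For the U version it was 0.45 and 0.87 against 1.70 and 2.03, again without overlap. The exact two-sided permutation test over the 4 libraries gave p = 0.333 for each, which is the smallest p that 2 libraries against 2 allow.

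At the 21 identical loci the U versions had the highest background. Their signal at position 51 without the complex, 5.32 per 1000, was above that of the A versions at 2.10 and of the originals at 1.46. In absolute terms the gain with the complex was 3.60 per 1000 for the U versions, 2.32 for the A versions and 4.24 for the originals. The U versions had the lowest ratio and the highest unmethylated level, and a link between them was not tested. ESS2 held the most counts of the U versions at this position. Without it the unmethylated level was 3.35 per 1000 in the U versions, 1.69 in the A versions and 1.32 in the originals. The U versions then had 5.37 and 4.66 per 1000 in the methylated libraries, against 2.91 and 3.80 in the unmethylated ones, a ratio of 1.49 and a gain of 1.66. The A versions without ESS2 had a ratio of 2.64 and a gain of 2.76, and the originals a ratio of 4.42 and a gain of 4.50. The order of A and U versions in gain thus changed with that 1 locus. Over all 50 loci the unmethylated level was closer between U versions and originals, at 4.66 and 3.97 per 1000, with 1.54 in the A versions. Without PACS2 it was 4.52 in the U versions, 3.51 in the A versions and 2.63 in the originals.

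Over all 50 loci the A versions had a ratio of 1.78, the U versions 1.95 and the originals 2.78. Leaving out PACS2 gave 2.43 for the A versions, 1.75 for the U versions and 3.80 for the originals. The order of A and U versions thus changed with that 1 locus, while both lay below the originals with it and without it. The response of the U versions relative to the A versions over the 50 loci was a log2 difference of 0.12 (exact two-sided permutation p = 1), and -0.49 without PACS2. The smallest p that the permutation test of 2 libraries against 2 allows is 0.333, so it cannot show whether A and U at -2 differ in response.

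Native sites with the same motifs gave a reference outside the permutated class. Pooled over the oligonucleotides selected around AGACU adenosines methylated in HEK293T, 522 in number, the ratio was 1.27. It was 1.66 over the UGACU ones, 396 in number, and 3.18 over GGACU ones that were not originals of a member, 1680 in number. At the 21 identical loci the versions in which other bases of the motif were exchanged had ratios of 2.85 for GAACC, 2.13 for AAACC and 3.02 for UAACC. These ratios carry no test, because they compare different sequences or share the originals.

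Single members were tested in a fit over every position of every sequence that reached 10 counts in 2 or more libraries (edgeR quasi-likelihood, Benjamini-Hochberg adjusted). Of 142938 sites tested, 3.7% were called higher in the methylated libraries at an adjusted p under 0.05, and 2.01% lower. At position 51, 13 A versions and 12 U versions passed the count filter, 10 of these 25 through the methylated libraries alone. Of them 6 A versions and 4 U versions were higher with the complex and none was lower. Of these 10 calls 5 had passed the filter through the methylated libraries alone, the A versions of CDX2, CRKL, TMEM250 and chr1:227731734 and the U version of PCYT2, so that their entry into the test already favoured a higher value there. Among the originals 14 passed the filter, 9 of them through the methylated libraries alone, and 10 were higher with none lower. Since members that passed through the methylated libraries alone had to have higher counts there, the share called is not set against the 3.7%.

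CDX2, which encodes an intestinal homeobox factor, rose in all 3 versions. The A version of CDX2 had 75 and 66 counts at position 51 in the methylated libraries, against 2 and 8 in the unmethylated ones, a log2 fold change of 3.54 ± 0.503 (SE; edgeR adjusted p = 5.8e-05). The U version of CDX2 had 86 and 35 counts, against 6 and 13, a log2 fold change of 2.42 ± 0.504 (edgeR adjusted p = 0.00377). Its original had 193 and 172 counts, against 22 and 34, a log2 fold change of 2.45 ± 0.335 (edgeR adjusted p = 3.7e-05). The groups did not overlap in the U version and the original. In the A version, which passed through the methylated libraries alone, the count filter had fixed this. Neither version was called different from the original in the fit described below. The CDX2 original also differs from the versions at positions 1 to 5.

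HIF1AN, whose product hydroxylates the hypoxia-inducible factor HIF1A, also rose in all 3 versions. Its A version had 82 and 62 counts in the methylated libraries, against 20 and 17 in the unmethylated ones, a log2 fold change of 1.70 ± 0.389 (edgeR adjusted p = 0.00841). Its U version had 44 and 29 counts, against 3 and 13, a log2 fold change of 1.93 ± 0.542 (edgeR adjusted p = 0.0336). Its original had 46 and 36 counts, against 1 and 3, a log2 fold change of 4.03 ± 0.631 (edgeR adjusted p = 0.000185). As shares the original was the lowest, with 1.60 and 1.28 per 1000 with the complex, against 0.0406 and 0.103 without it. The A version of HIF1AN had 12.4 and 8.17, against 3.92 and 3.10, and the U version 7.60 and 4.40, against 0.674 and 2.82. The methylated libraries were the higher ones in the A and U versions. In the original, which passed through the methylated libraries alone, the count filter had fixed this. In HIF1AN a second GGACU lies directly downstream of the exchanged motif, in all versions. The HIF1AN original also differs from the versions at positions 1 and 3.

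The other 4 A versions called higher lay in CRKL, which encodes a signalling adaptor, in TMEM250 and at a pair of loci in 2 genes each. The CRKL A version had 29 and 22 counts with the complex, against 4 and 5 without it, a log2 fold change of 2.22, and its original had 86 and 93, against 11 and 17. That original also differs from the versions at positions 1, 2, 3 and 5. The TMEM250 A version had 50 and 37 counts, against 6 and 9, a log2 fold change of 2.27. The A version at chr20:25675897 had 295 and 274 counts, against 72 and 85, a log2 fold change of 1.60, and the one at chr1:227731734 had 21 and 35, against 8 and 4, a log2 fold change of 1.93. At chr20:25675897 the groups did not overlap. For the A versions of CRKL, TMEM250 and chr1:227731734 the count filter had fixed this, since they passed it through the methylated libraries alone. None of the U versions of these loci was called, and those of TMEM250 and chr1:227731734 had too few counts to be tested.

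The remaining calls among the U versions were PACS2 and PCYT2. PCYT2 encodes an enzyme of phosphatidylethanolamine synthesis. Its U version had 28 and 21 counts in the methylated libraries, against 4 and 5 in the unmethylated ones, a log2 fold change of 2.16 ± 0.591 (edgeR adjusted p = 0.0289). Its A version had 0 and 1 counts, against 2 and 2, and its original 25 and 8, against 1 and 1. Totals of the 3 sequences were within the same range, 3353 counts for the A version, 6943 for the U version and 5184 for the original.

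ATG4B, which encodes a protease of autophagy, was among the 10 loci with the most counts at position 51 but was not called in any version. Its A version had 11 and 14 counts with the complex, against 4 and 11 without it, its U version 146 and 84, against 52 and 53, and its original 78 and 62, against 24 and 32. The groups lay apart in the U version and the original and met in the A version.

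Many of these calls were lost when 1 library was left out. Fewer members were called without methylated replicate 1 and without methylated replicate 2. Fewer sites of the whole table were called there too, so this loss is not shown to be particular to these members. The 5 members named above as passing through the methylated libraries alone could not be tested without either methylated replicate. Without methylated replicate 1 the edgeR adjusted p was 0.127 for the HIF1AN A version, 0.36 for its U version and 0.246 for the CDX2 U version. The HIF1AN U version also lost its call without methylated replicate 2 (adjusted p = 0.109) and without unmethylated replicate 1 (0.187). Without unmethylated replicate 1 it was 0.0566 for the CRKL A version and 0.068 for the PCYT2 U version, and without unmethylated replicate 2 it was 0.0573 for PCYT2 and 0.195 for the A version at chr1:227731734. DESeq2 called 6 of the 10, all but the HIF1AN and PCYT2 U versions and the A versions of CRKL and chr1:227731734.

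The test of the exchange itself was the interaction of version and methylation, fitted over all positions of all pairs that reached 10 counts in 2 or more of the 8 columns (edgeR quasi-likelihood, Benjamini-Hochberg adjusted). With the identical originals, 5835 features were tested, of which 0.0343% were called lower in the version and 0.12% higher. These features came from every permutated sequence with an identical original, so also from versions with other bases of the motif exchanged. The lower calls were AAACC versions of SPG7 and ACTR5, at positions outside the motif. At position 51, 9 A pairs and 10 U pairs of 21 each could be tested, and 0 were called in either direction by edgeR and 0 lower by DESeq2. Several pairs passed the filter only through the original's methylated libraries, among them both pairs of TWF2, whose versions had no count at this position, so the signs of the differences are not tallied. At an unadjusted edgeR p under 0.05 there were 2 A pairs and 3 U pairs, beside 7.46% of all features of the fit. The pairs described next are given for their values and not as calls.

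CHKA, which encodes choline kinase, was among these in both versions. Its A version had 17 and 10 counts at position 51 with the complex, against 7 and 7 without it. Its U version had 5 and 9 counts with the complex, against 6 and 7 without it. Its original had 44 and 16 counts with the complex, against 4 and 3 without it. The counts of the U version thus overlapped between the groups. The U pair passed the filter only through the original's methylated libraries, which fixed that the original did not overlap. The log2 difference in response was -2.06 ± 0.908 for A and -2.84 ± 1.02 for U (SE; edgeR adjusted p = 0.574 and 0.407).

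SPG7, shown in full above, had 19 and 14 counts in the A version with the complex, against 4 and 2 without it. Its U version had 24 and 21 counts, against 7 and 12, and its original 38 and 28, against 1 and 7. As shares, the U version of SPG7 had 15.7 and 10.9 per 1000 with the complex, against 9.59 and 14.5 without it, so that these overlapped. The log2 difference of the U version from the original was -1.83 ± 0.822 (edgeR adjusted p = 0.606). In FBXW4, which encodes an F-box protein, the A version had 6 and 9 counts, against 1 and 0, the U version 1 and 1, against 2 and 3, and the original 19 and 23, against 3 and 1. AGK, which encodes a mitochondrial lipid kinase, had 0 and 0 counts in the A version with the complex, against 2 and 0 without it, its U version had 2 and 5, against 1 and 0, and its original 18 and 29, against 8 and 1. The log2 difference from the original was -4.55 ± 1.73 for the FBXW4 U version (edgeR adjusted p = 0.466) and 0.33 ± 1.24 for its A version. It was -5.38 ± 2.57 for the AGK A version (edgeR adjusted p = 0.643) and 0.18 ± 0.886 for the AGK U version (edgeR adjusted p = 1). The FBXW4 and AGK pairs passed the filter only through the original's methylated libraries, which fixed that their originals did not overlap.

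ESS2 went the other way in its U version. That version had 153 and 197 counts at position 51 with the complex, against 87 and 92 without it, or 19.5 and 20.3 per 1000 against 9.77 and 9.08. The A version of ESS2 had 10 and 6 counts, against 14 and 10, and the original 3 and 9, against 5 and 9. The log2 difference of the U version from the original was 1.19 ± 0.668 (edgeR adjusted p = 0.727). The high level of the ESS2 U version was thus present without the complex too.

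A further fit held all permutated sequences and their originals, including those that differ at the 5′ end. Of its 15016 features, 0.0466% were called lower in the version and 0.173% higher. At position 51, 19 A pairs and 18 U pairs could be tested, of which 1 A pair and 1 U pair were lower and 1 U pair higher. Both lower ones were SLC35H1, a member of solute carrier family 35. Its A version had 83 and 99 counts with the complex, against 56 and 83 without it. Its original had 419 and 477 counts with the complex, against 88 and 175 without it. As shares the A version of SLC35H1 had 15.2 and 14.8 per 1000, against 10.2 and 15.8, the U version 13.2 and 10.8, against 10.1 and 12.3, and the original 26.8 and 27.7, against 6.40 and 11.6.

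The groups thus overlapped in both versions of SLC35H1 and lay apart in the original. The log2 difference in response was -1.42 ± 0.356 for A (edgeR adjusted p = 0.0335) and -1.75 ± 0.342 for U (edgeR adjusted p = 0.000628). With the replicate block the A pair had an adjusted p of 0.0868, and without any 1 of the 4 libraries the adjusted p was from 0.513 to 1. Fits without 1 library called 0 to 2 features in all, so the loss says little about this locus. DESeq2 gave an adjusted p of 0.424 for the A pair and 0.054 for the U pair. Its original also differs from the versions at position 1.

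The pair called higher was the U version of PACS2, which encodes a membrane-traffic protein. At position 51 it had 33.2 and 26.3 per 1000 counts with the complex, against 7.86 and 7.92 without it. The A version of PACS2 had 0.855 and 0.865 per 1000, against 0.641 and 1.15, which overlapped, and the original 18.1 and 15.8, against 10.1 and 12.4. The U version rose by a log2 fold change of 2.18 ± 0.348 (edgeR adjusted p = 0.00023), while that of the original was 0.49 ± 0.277 (edgeR adjusted p = 0.37). The log2 difference between them was 1.67 ± 0.376 (edgeR adjusted p = 0.0062), with an adjusted p from 0.715 to 1 when 1 library was left out, in the same fits, and 0.258 with DESeq2. The PACS2 original differs from the versions at positions 1, 2 and 3.

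Between the U and the A version of one locus, which differ at 1 base, 0 of 1873 features (0%) were called by edgeR and 0 by DESeq2, with 6.19% at an unadjusted edgeR p under 0.05. At position 51, 16 of 50 loci could be tested. The smallest adjusted p was that of PACS2, with a log2 difference of 2.24 ± 0.424 (edgeR adjusted p = 0.0672).

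A clear and shared property of the U versions lay at the exchanged base itself. At position 49 the U versions of the 21 identical loci had 20.6 ± 0.857 per 1000 counts in the methylated libraries and 18.2 ± 0.786 in the unmethylated ones (SD, n = 2 each). The A versions had 2.15 and 2.39 per 1000 with the complex and 2.61 and 1.72 without it. The originals had 1.22 and 1.26 with it and 0.920 and 0.884 without it. All 4 libraries of the U versions lay above all those of the others, with a ratio between methylated and unmethylated libraries of 1.13.

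By locus, with the 4 libraries summed, the U version had the higher share at position 49 in 41 of the 49 loci with counts in both, the A version in 3, and 5 were equal. The median was 11.4 per 1000 in the U versions (quartiles 4.39 and 19.6), 1.79 in the A versions (0 and 4.04) and 0.831 in the originals (0.172 and 2.27). PCYT2 had 86.6 per 1000 at this base in the U version, 1.79 in the A version and 4.44 in the original. CHKA had 60.4 in the U version, 5.14 in the A version and 1.82 in the original. Counts at position 49 thus distinguished U from A and G in RNA that had not met the complex.

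At the 21 identical loci position 50, directly upstream of the adenosine, differed in another way. The originals had 3.40 and 3.47 per 1000 there with the complex, against 1.52 and 1.83 without it, a ratio of 2.05. In the A versions it was 2.79 and 3.01, against 2.36 and 2.20, a ratio of 1.27. In the U versions it was 3.75 and 4.49, against 4.03 and 3.08, a ratio of 1.16, and the groups overlapped. Over all 50 loci the contrast was smaller, with ratios of 1.43 in the originals, 1.01 in the A versions and 1.28 in the U versions. The U versions then had 5.22 and 5.16 per 1000, against 4.33 and 3.76, without overlap. Leaving out PACS2 gave ratios of 1.49 in the originals, 1.10 in the A versions and 1.26 in the U versions. Among positions 46 to 56 the ratio was highest at position 51 in each of the 3 sets.

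The other DRACH sites of the same RNAs served as a comparison within the sequence. Of the 50 loci 45 held at least 1 further DRACH site clear of the exchanged motif, with the same 5-mer in every version. At the 21 identical loci there were 47 such sites in 19 of them. Together these had 19.7 and 15.1 per 1000 counts in the A versions with the complex, against 7.16 and 4.80 without it, a ratio of 2.91. In the U versions they had 24.8 and 23.7 per 1000, against 6.17 and 5.67, a ratio of 4.10. In the originals they had 13.5 and 12.2, against 8.03 and 7.14, a ratio of 1.69. Over all 50 loci the pooled ratios were 3.78 for the A versions, 2.93 for the U versions and 1.74 for the originals. The pooled ratio was thus larger in both versions than in the originals, while that at position 51 was smaller, but single sites did not move one way. With the identical originals, the log2 difference in response was negative at 5 of 12 sites tested in the A versions (median 0.67). In the U versions it was negative at 4 of 13 (median 0.44), so both medians were positive in this first comparison. In the interaction fit of all loci it was negative at 18 of 31 sites tested in the A versions (median -0.17). In the U versions of that fit it was negative at 14 of 29 (median 0.05), beside 49.9% of all its features. A site could pass the count filter through the methylated libraries of the version or of the original alone. No direction is therefore read from these signs and medians.

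The exact permutation test gave p = 0.333 for both versions in either set of loci, the smallest possible value. Without ESS2 and FAF2 the ratios were 2.67 for the A versions, 2.19 for the U versions and 1.75 for the originals, which brings the log2 difference of the U versions to 0.31, against 1.28 with them. By locus the direction was mixed. A ratio for both the A version and the original could be formed at 14 loci, where that of the A version was the larger in 8 and the smaller in 6. For the U version it could be formed at 14 loci, not all of them the same, where it was the larger in 8 and the smaller in 5. Versions with other exchanged bases at the same 21 loci also had larger ratios than the originals, 2.99 for GAACC, 2.66 for AAACC and 3.09 for UAACC.

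In the interaction fit, 12 such sites in A pairs and 13 in U pairs were tested, of which 1 and 2 were called higher in the version and none lower, beside the 0.12% of all features. FAF2, which encodes a UBX-domain protein of the endoplasmic reticulum, accounted for one in each. Its site at position 71 (AGACC) had 75 and 57 counts in the A version with the complex, against 7 and 3 without it, and 85 and 71 in the U version, against 8 and 4. In the original it had 57 and 45 counts, against 27 and 36. The log2 difference was 2.99 ± 0.624 for the A version of FAF2 (edgeR adjusted p = 0.0151) and 2.98 ± 0.593 for the U version (edgeR adjusted p = 0.0124). The pairs share the original, so they are not independent of each other.

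The third was the U version of ESS2 at position 94 (UGACC). It had 278 and 395 counts with the complex, against 42 and 43 without it, and the original 45 and 65, against 29 and 28. The log2 difference was 2.04 ± 0.399 (edgeR adjusted p = 0.0124). DESeq2 called none of the 3. Without any 1 library the fit called 0 of all its features in either direction, so it says nothing about these sites in particular. Calls in the members outside DRACH sites were 1 in the U version of SPG7, with a log2 difference of 1.15, and 1 in the U version of GNA11, at position 59, with one of 1.52.

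The predicted pairing of the adenosine moved in both directions with the exchange. Over the 50 loci the median probability of position 51 being unpaired, from the partition function of the 141 positions, was 0.762 in the A versions, 0.769 in the U versions and 0.789 in the originals. It was higher than in the original by more than 0.2 in 11 A versions and 12 U versions, and lower by more than 0.2 in 12 of each. In ESS2 it was 0.576 in the A version, 0.0184 in the U version and 0.896 in the original, and in CHKA 0.65, 0.683 and 0.113. In SPG7 it was 0.99 in all 3. The part of pairing in the responses was not tested.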

How the data were processed

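The table deposited by the authors holds unnormalized counts of crosslinks, 1 value per position, oligonucleotide and library. Per the submitters' processing notes FastQC 0.11.8, STAR 2.7.3a and bedtools 2.27.1 were used; their roles, any duplicate removal and the build of the coordinates are not stated there. Counts of the 3 oligonucleotides of a sequence were summed. Sites that reached 10 counts in 2 or more libraries entered the site fit (edgeR 4.0.16 in R 4.3.3, quasi-likelihood, TMM), and pairs were tested by the interaction of version and methylation with library totals as library size; Benjamini-Hochberg adjustment ran over all features of each fit, with a threshold of 0.05. SE is the log2 change over the square root of F. Pooled shares were compared by exact two-sided permutation over the 4 libraries. Alternatives were DESeq2 1.42.0, other scalings and count filters, single tags, a replicate block and leaving out each library. The fits were tested on simulated data. Pairing came from ViennaRNA 2.7.2; summaries used Python 3.11.15. Gene names are RefSeq genes (GRCh38.p14) at the locus coordinate, on either strand.

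The named loci are the 10 with the most counts at position 51 over the 3 versions and 4 libraries, and every member or pair past the threshold there. FBXW4, AGK, FAF2, GNA11 and the originals' values were added after their values were seen. The members, lists and tests were chosen with earlier results of these data known. The table's library names Control and Methylated were matched to the unmethylated and methylated labels. Sequence totals of the replicates differed beyond counting error (chi-square per degree of freedom 38.4 in the methylated and 44.1 in the unmethylated group), so they were kept apart. Counts are not known to be independent molecules, and depth limits the precision at each site.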

Additional observations from a re-analysis of the deposited data

Results flagged for a closer look

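In all, 3 differences in response between an exchanged version and its original passed the threshold of the interaction test at position 51, all in the fit with the originals of all 50 loci (edgeR, Benjamini-Hochberg adjusted). In SLC35H1 the A version responded less than the original (log2 difference -1.42), and so did the U version (log2 difference -1.75). In PACS2 the U version responded more than the original (log2 difference 1.67). In both loci the original also differs from the versions at the 5′ end, so these bases and the base at -2 cannot be told apart.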

How the results depend on the processing

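The 10 members called higher at position 51 became 6 with DESeq2 and 6 with each tag as a site, and the 10 originals became 5 with DESeq2 and 6 with a minimum of 20 counts. Without methylated replicate 1, 2 members and 3 originals were called, and without methylated replicate 2, 4 members and 2 originals; leaving out each library in turn gave 2 to 8 members and 2 to 11 originals. Version pairs called lower numbered 0 with the identical originals under every alternative run, of which those without 1 library called 0 of all features, and 2 with the originals of all 50 loci (chosen after seeing the data). The A to U pairs called became 1 against the total of the sequence, with a minimum of 5 counts, with no count filter and with the replicate block. The 3 bystander pairs became 0 with DESeq2 and 0 without any 1 library, where the interaction fit called 0 of all its features. With the replicate block, 10 members, 11 originals, 0 lower version pairs and 3 bystander pairs were called. Deviations of same-numbered libraries over sequence totals correlated at -0.32, and with the numbers crossed (also chosen after seeing the data) the counts were 10 members, 13 originals, 0 lower version pairs, 1 A to U pair and 3 bystander pairs. The A response relative to the original (-0.87) was -0.56 with tag 2 alone and -1.14 to -0.59 without 1 library. It was -0.66 over all 50 loci, with PACS2 and without it. The U response relative to the original (-1.20) was -1.55 without ESS2 and -1.41 to -0.99 without 1 library. Over all 50 loci it was -0.54, and -1.15 when PACS2 was left out of these. The U response relative to the A version (0.12) turned to -0.0089 scaled to library totals, -0.59 with sequences weighted equally, -0.49 without PACS2, -0.59 with tag 1 alone and -0.33 over the 21 identical loci, and was 0.68 with tag 3 alone and -0.12 to 0.35 without 1 library. The cause of these changes was not tested. For the 13 calls of named members and pairs no alternative that gave a value changed the sign and 36 settings lost the call. Of the 52 settings without 1 library, 21 lost the call and 10 left the member untested, for 5 members without either methylated replicate.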
